A study of Mus musculus with 28 samples.

Results

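Cd38, Bst1, Nampt, Naprt, Nmnat1, Nmnat3 and Sirt1, 7 genes of NAD consumption and NAD salvage, were followed through 28 cultures of murine bone marrow-derived macrophages (BMDMs). The 7 genes were given as a list of names for their roles in NAD metabolism, chosen with earlier results of these data known, and were found by symbol among the 54532 genes of the count table. BMDMs were grown from the bone marrow of adult C57/B6JB mice with M-CSF, the growth factor that drives macrophage differentiation, and were given fresh medium with CaCl2 before treatment. Control cultures were incubated with PBS, VWF cultures with 10 µg/ml of plasma-derived von Willebrand factor (pd-VWF), and LPS cultures with 100 ng/ml of bacterial lipopolysaccharide, each for 3.5 h or 16 h. VWF is the plasma protein that tethers platelets to a damaged vessel wall, and LPS is a component of the outer membrane of Gram-negative bacteria that macrophages sense through TLR4. Each time had 5 control, 5 VWF and 4 LPS cultures, and all were sequenced as bulk RNA. The comparisons ask how each stimulus, at each time, changed the mRNA of these enzymes, and whether VWF and LPS differed. VWF and LPS were compared with the same control cultures, and each comparison is therefore given by its own values. The labels call the replicates biological but do not say whether each came from its own animal, so p values measure the spread between these cultures.

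NAD carries electrons in glycolysis and respiration and is also used up as a substrate. The ectoenzymes CD38 and CD157 (encoded by Bst1) cleave it and release nicotinamide, and the sirtuin SIRT1 uses it to remove acetyl groups from proteins. Macrophages rebuild most NAD from nicotinamide: NAMPT makes nicotinamide mononucleotide in the rate-limiting step of salvage, and NMNAT1 in the nucleus and NMNAT3 in mitochondria turn that into NAD. NAPRT starts a parallel route from nicotinic acid. CD38 is also used as a surface marker of inflammatory (M1) mouse macrophages, and NAMPT is secreted as the cytokine-like protein visfatin.

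Total counts per culture ranged from 41131209 to 77699206. Macrophage identity was checked with 6 markers (Adgre1, Csf1r, Cd68, Itgam, Lyz2 and Mertk), all above 1 TPM (a transcript level scaled for exon length and for the total of a culture) on average in every group, with a summed level of 4365 to 49088 TPM. A single marker reached 42662 TPM in a culture, so it made up most of the sum there. These sums moved with treatment. At 3.5 h they were 17843 to 29684 TPM in controls, 17591 to 23039 TPM with VWF and 8366 to 15391 TPM with LPS. At 16 h they were 6385 to 34683 TPM, 27294 to 49088 TPM and 4365 to 13059 TPM in that order, so LPS cultures lay below VWF cultures at both times and below controls at 3.5 h. The part of this in the LPS results below was not tested. T cell and B cell markers summed to at most 0.659 TPM in any culture, and Tnf reached 3327 to 4364 TPM in the treated cultures at 3.5 h against 181 to 353 TPM in controls. Fibroblast markers (Col1a1, Col1a2 and Dcn) varied from 3.28 to 136 TPM, with overlapping ranges in the 6 groups. Control 16 h replicate 5 stood apart from its group, with a TMM factor (the composition correction applied to library size) of 0.945 against 1.17 to 1.18 in the other 4. TMM factors were 0.735 to 0.848 in LPS cultures. With library size scaling alone, the median log2 fold change of all genes tested was -0.55 for LPS against control at 3.5 h, -0.59 at 16 h, and -0.22 and -0.09 for VWF against control at these times. With TMM it lay within 0.04 of 0 in every comparison. In bulk samples, fewer cells of a type and less RNA per cell cannot be told apart.

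Cd38 and Bst1 are neighbours on chromosome 5 of GRCm38. Bst1 (ENSMUSG00000029082) spans bases 43818885 to 43843986 and Cd38 (ENSMUSG00000029084) bases 43868553 to 43912375, both on the + strand, with 24.6 kb and no annotated gene between them. Nampt (ENSMUSG00000020572) lies on chromosome 12 at 32819545 to 32853349 on the + strand. Naprt (ENSMUSG00000022574) lies on chromosome 15 at 75890956 to 75894481 on the - strand, where 11.8% of its exon bases are also exon of Eef1d on the same strand, so its reads are less certain than those of the others. Nmnat1 (ENSMUSG00000028992) spans 149467572 to 149485202 on the - strand of chromosome 4, Nmnat3 (ENSMUSG00000032456) 98287435 to 98420438 on the + strand of chromosome 9, and Sirt1 (ENSMUSG00000020063) 63319005 to 63381704 on the - strand of chromosome 10. Of the others, 2.99% of the 100-base windows of Nmnat1 occur in other genes, 2.95% of Bst1 exon bases overlap Fbxl5, and 1.22% of Sirt1 exon bases overlap Gm16145.

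RefSeq promoters (GRCm38.p6, 250 bases before to 50 after the start) were listed for 5 of the 7 genes. Those of Cd38, Nampt and Sirt1, the 3 of these genes that changed most with treatment, are shown because they differ sharply in CG content. Every CG dinucleotide, the site of DNA methylation in mammals, is in capitals. The Cd38 window is chr5:43868559-43868858 (+), the Nampt window chr12:32820085-32820384 (+) and the Sirt1 window chr10:63338986-63339285 (-). The RefSeq start of Sirt1 lies 42669 bases downstream of the start of the gene in the GENCODE annotation.
Cd38: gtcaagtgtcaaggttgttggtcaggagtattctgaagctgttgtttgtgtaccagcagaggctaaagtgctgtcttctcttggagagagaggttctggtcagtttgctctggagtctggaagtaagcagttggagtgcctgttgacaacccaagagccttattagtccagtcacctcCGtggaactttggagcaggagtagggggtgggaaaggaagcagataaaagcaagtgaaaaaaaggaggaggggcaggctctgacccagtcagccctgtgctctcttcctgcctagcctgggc
Nampt: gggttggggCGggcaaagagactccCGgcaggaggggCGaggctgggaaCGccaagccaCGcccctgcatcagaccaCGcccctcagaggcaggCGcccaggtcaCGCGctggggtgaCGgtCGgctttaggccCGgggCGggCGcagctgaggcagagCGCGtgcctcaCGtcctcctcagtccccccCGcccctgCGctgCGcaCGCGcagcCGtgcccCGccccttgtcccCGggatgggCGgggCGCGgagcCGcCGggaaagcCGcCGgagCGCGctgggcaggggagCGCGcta
Sirt1: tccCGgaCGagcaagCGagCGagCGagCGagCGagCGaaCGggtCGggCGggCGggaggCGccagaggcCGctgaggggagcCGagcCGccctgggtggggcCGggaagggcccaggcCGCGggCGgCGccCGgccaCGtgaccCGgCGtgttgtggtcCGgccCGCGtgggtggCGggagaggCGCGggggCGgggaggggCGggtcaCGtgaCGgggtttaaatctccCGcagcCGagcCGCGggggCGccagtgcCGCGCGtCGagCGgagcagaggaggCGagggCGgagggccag
Cd38, the gene with the widest range of levels among the 7, held 1 CG in its 300 bases at 51.7% G and C. Nampt held 36 CG at 76.3% and Sirt1 47 CG at 79%, against medians of 7 CG and 52.7% over all 32851 promoters listed. Nmnat1, with a promoter at each of 2 starts, held 28 CG in each, and Nmnat3 held 13. A search of both strands for GAAANNGAA (an interferon response element core), TTCNNNGAA (a STAT site) and the consensus NF-κB site found no match in the 6 promoters of these genes. Of all promoters, 8.56%, 8.30% and 5.81% held a match, in that order. The windows do not reach enhancers, and no match says only that these letters were not in them.

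Per length, Nampt was the most abundant of the 7 in control cultures, at 60.4 ± 7.96 TPM at 3.5 h and 56.2 ± 5.86 TPM at 16 h (mean ± SD, n = 5). Cd38 was the least abundant there, at 0.442 ± 0.238 and 1.15 ± 0.492 TPM. Bst1, Naprt, Nmnat1, Nmnat3 and Sirt1 had control means between 4.54 and 14.8 TPM. After 16 h of LPS the order changed: Nampt stood at 218 ± 18.5 TPM, Bst1 at 119 ± 10.8 TPM and Cd38 at 97.1 ± 10.7 TPM (n = 4), while the other 4 genes had means of 2.53 to 7.13 TPM. Within a gene, levels are given below as CPM, the count of a gene scaled to the total of its culture without regard to length, with TMM factors over all cultures.

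**Figure D1:**
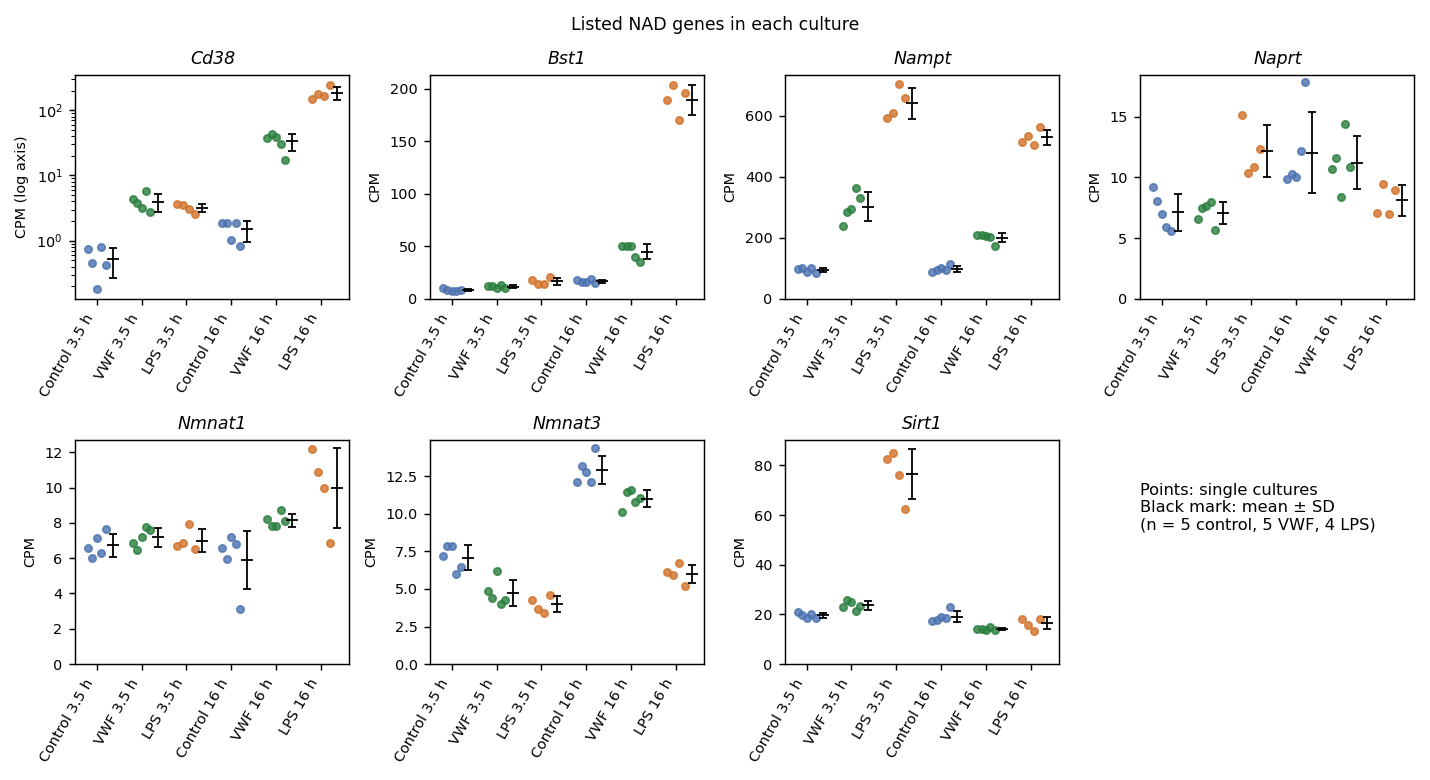
Level of each of the 7 genes in each culture, in CPM (vertical axis, logarithmic for Cd38 and linear from 0 for the others), for the 6 groups (horizontal axis). Points are single cultures and black marks show mean ± SD. Cd38 and Bst1 were highest in LPS cultures at 16 h, Nampt in LPS cultures at both times, and Sirt1 in LPS cultures at 3.5 h.

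Changes were tested with edgeR's quasi-likelihood test over all genes that reached 10 TPM in at least 1 culture of the comparison. "Rose" and "fell" are used for genes with an adjusted p under 0.05 and an absolute log2 fold change of at least 1. Nmnat1 and Nmnat3 never reached 10 TPM and Cd38 did not at 3.5 h, so their values there come from the same test after edgeR's lower expression filter (filterByExpr). With VWF at 3.5 h, 1 of the 4 tested genes rose (Nampt), where 14.7% of all 8200 genes tested were called. LPS at 3.5 h raised 3 of 4 (Bst1, Nampt and Sirt1), where 24.5% of all genes were called. At 16 h, Cd38, Bst1 and Nampt rose with both stimuli, 3 of the 5 tested genes in each case, against 8.71% of all genes for VWF and 27.6% for LPS. VWF cultures were lower than LPS cultures in 2 of 4 genes at 3.5 h (Nampt and Sirt1, against 11.4% of all genes) and in 3 of 4 at 16 h (Cd38, Bst1 and Nampt, against 25.5%). None of the tested genes fell against control with TMM scaling, and with library size scaling Naprt did so with LPS at 16 h (-1.07). The median log2 fold change of the tested members was 0.37 and 1.49 for VWF and LPS at 3.5 h and 1.03 and 2.47 at 16 h, and that of all genes tested lay between -0.03 and -0.01. In every comparison of 2 groups, at least 1 tested gene passed the filter through 1 group alone. Bst1 did so through the treated cultures at 3.5 h (at most 9.64 TPM in controls), and Cd38 through the treated cultures at 16 h and, between the times, through the 16 h cultures. Bst1 in controls between the times also passed through the 16 h cultures alone. Naprt passed through controls alone against VWF at 3.5 h (at most 8.80 TPM with VWF) and LPS at 16 h. Between VWF and LPS it passed through LPS at 3.5 h and VWF at 16 h. Sirt1 passed through controls alone against both stimuli at 16 h (at most 7.86 TPM with VWF, 7.59 TPM with LPS). A gene that passes in that way is apt to differ, so the counts and medians over tested genes are descriptions, here and between the times.

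**Figure D2:**
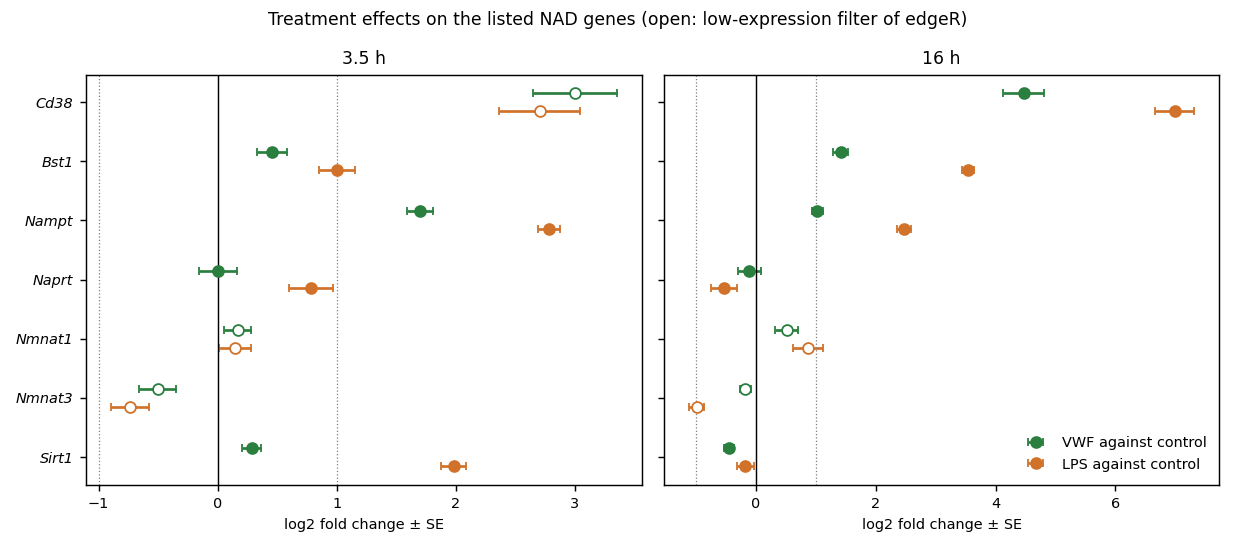
Log2 fold change against control (horizontal axis, ± SE) of each gene at 3.5 h (left) and 16 h (right), for VWF in green and LPS in orange. Open points come from the test with edgeR's lower filter, and dotted lines mark an absolute log2 fold change of 1. At 16 h the values of Cd38 were 4.47 with VWF and 6.99 with LPS, the 2 largest shown.

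Cd38, the main NAD-cleaving ectoenzyme, went from a barely detected transcript in controls to one of the 3 most abundant of the 7 after 16 h of LPS. At 3.5 h the 5 control cultures had 0.757, 0.447, 0.184, 0.803 and 0.417 CPM, from only 12 to 60 counts each. The 5 VWF cultures had 4.33, 3.78, 3.13, 5.86 and 2.79 CPM, and the 4 LPS cultures 3.67, 3.47, 3.06 and 2.60 CPM. Every treated culture lay above every control, and VWF and LPS overlapped. Under the lower filter, Cd38 rose by 3.00 ± 0.35 (log2 fold change ± SE, adjusted p = 2.21e-05) with VWF, where 14.8% of all 14153 genes were called. It rose by 2.71 ± 0.34 (adjusted p = 2.73e-05) with LPS, where 27.5% were called. The difference between VWF and LPS at 3.5 h was 0.28 ± 0.22 (adjusted p = 0.341). Summed dendritic cell markers (Flt3, Zbtb46 and Xcr1) were also higher in treated cultures at 3.5 h, at 8.11 to 9.98 TPM with VWF and 10.3 to 11.9 TPM with LPS against 0.548 to 0.851 TPM in controls. Only 1 of these 3 genes averaged above 1 TPM in each treated group at that time. Summed neutrophil markers (Ly6g, Mpo, Elane, Camp and Ltf) were 4.16 to 9.45 TPM with VWF, 2.09 to 5.69 TPM with LPS and 0.183 to 4.59 TPM in controls.

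At 16 h the Cd38 levels separated by stimulus. Controls had 1.85, 1.86, 1.01, 1.87 and 0.831 CPM. VWF cultures had 37.3, 43.2, 38.5, 30.3 and 17.4 CPM, and LPS cultures 151, 177, 164 and 246 CPM. No culture of one group reached the range of the next, although VWF replicate 5 had less than the other VWF cultures. Cd38 rose 22.2-fold with VWF (log2 fold change 4.47 ± 0.34, adjusted p = 5.41e-06) and 127-fold with LPS (6.99 ± 0.33, adjusted p = 1.73e-07, 6.39 with library size scaling), and was 5.52-fold lower with VWF than with LPS (-2.46 ± 0.26, adjusted p = 2.08e-05). Across the 6 groups, the highest mean of Cd38 was 354 times the lowest, with only VWF and LPS at 3.5 h overlapping as neighbours in the order. The neutrophil markers summed to 7.30 to 12.4 TPM in VWF cultures at 16 h, 1.96 to 3.14 TPM in LPS cultures and 0.497 to 3.93 TPM in controls. Most of this was Camp, and Ly6g stayed at or below 0.118 TPM in every culture. The dendritic cell markers summed to 6.68 to 11.4 TPM in LPS cultures at 16 h, 0.545 to 1.56 TPM in VWF cultures and 0.309 to 0.685 TPM in controls, most of it Xcr1, which was at 6.52 to 11.2 TPM in LPS cultures at 16 h and 0.49 to 1.40 TPM in VWF cultures, and Flt3 was at or below 0.067 TPM in all. The part of such cells in the Cd38 results was not tested.

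Bst1, the neighbour and paralog of Cd38, followed it with smaller changes from a higher starting level. Its control levels at 3.5 h were 10.1, 8.39, 7.36, 7.44 and 8.83 CPM. VWF cultures had 12.2, 12.1, 9.85, 13.0 and 10.1 CPM and overlapped the controls, whereas LPS cultures had 18.1, 14.1, 14.0 and 20.5 CPM and did not. The log2 fold change was 0.46 ± 0.12 with VWF (adjusted p = 0.0106), under the fold threshold. It was 1.00 ± 0.15 with LPS (adjusted p = 0.000149), and VWF differed from LPS by -0.52 ± 0.15 (adjusted p = 0.0138). The LPS call rests on the threshold: without any 1 of control replicates 3 and 4 or LPS replicates 1 and 4 the value was 0.89 to 0.97, in a fit of all groups 0.99, and with library size scaling 0.47.

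At 16 h Bst1 stood at 17.7, 15.7, 16.2, 18.6 and 15.3 CPM in controls. It stood at 49.93, 49.95, 50.2, 39.7 and 34.7 CPM in VWF cultures, and at 189, 204, 170 and 196 CPM in LPS cultures. The 3 groups did not overlap, and VWF replicate 5 was again the lowest of its group. Bst1 rose 2.68-fold with VWF (log2 fold change 1.42 ± 0.13, adjusted p = 1.49e-05) and 11.7-fold with LPS (3.54 ± 0.10, adjusted p = 1.47e-08). It was 4.22-fold lower with VWF than with LPS (-2.08 ± 0.13, adjusted p = 6.46e-07). Control levels at 16 h overlapped those of LPS at 3.5 h, and VWF overlapped control at 3.5 h. The other neighbours in the order did not overlap.

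Nampt, the rate-limiting enzyme of NAD salvage, responded to both stimuli at both times, and more to LPS. At 3.5 h, control cultures had 96.2, 99.6, 87.1, 103 and 86.0 CPM. VWF cultures had 239, 283, 295, 364 and 329 CPM, and LPS cultures 592, 611, 705 and 660 CPM. The 3 groups were fully separate. Nampt rose 3.24-fold with VWF (log2 fold change 1.70 ± 0.11, adjusted p = 2.19e-07) and 6.91-fold with LPS (2.79 ± 0.09, adjusted p = 8.72e-10), and was 2.09-fold lower with VWF than with LPS (-1.07 ± 0.12, adjusted p = 3.46e-05).

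After 16 h the order of the groups was the same for Nampt. Controls had 86.2, 93.4, 101, 94.7 and 114 CPM, VWF cultures 209, 208, 206, 204 and 174 CPM, and LPS cultures 516, 533, 505 and 562 CPM. Replicates 1 to 4 of VWF lay close together, with replicate 5 below them. Nampt rose by a log2 fold change of 1.03 ± 0.09 with VWF (adjusted p = 1.24e-05) and 2.47 ± 0.11 with LPS (adjusted p = 1.05e-07), with VWF below LPS by -1.40 ± 0.08 (adjusted p = 4.24e-07). The VWF value was near the fold threshold and was 0.99 without control replicate 1 and 0.97 with library size scaling. That scaling also brought the VWF to LPS differences to -0.77 at 3.5 h and -0.94 at 16 h.

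Naprt, which starts NAD synthesis from nicotinic acid, stayed within a narrow range, with a highest group mean 1.72 times the lowest. At 3.5 h it had 9.23, 8.02, 6.99, 5.89 and 5.55 CPM in controls, 6.54, 7.49, 7.65, 7.97 and 5.70 CPM with VWF, and 15.1, 10.4, 10.8 and 12.3 CPM with LPS. LPS cultures lay above all others at that time. The log2 fold change was 0.00 ± 0.16 with VWF (adjusted p = 0.997) and 0.78 ± 0.18 with LPS (adjusted p = 0.00305), which became 0.26 (adjusted p = 0.223) with library size scaling. At 16 h the values were 9.88, 10.3, 10.0, 12.1 and 17.8 CPM in controls, 10.7, 11.6, 8.37, 14.4 and 10.9 CPM with VWF, and 7.04, 9.44, 6.98 and 8.92 CPM with LPS. The differences from control were -0.11 ± 0.19 (adjusted p = 0.745) and -0.54 ± 0.21 (adjusted p = 0.0601). The control value of 17.8 CPM came from replicate 5, the culture with the low TMM factor, and without it the LPS difference was -0.35. VWF cultures differed from LPS cultures by -0.76 ± 0.15 at 3.5 h (adjusted p = 0.00194) and 0.47 ± 0.17 at 16 h (adjusted p = 0.0388). Naprt entered each of these tests through its higher group alone. Under the lower filter the differences were -0.81 ± 0.15 (adjusted p = 0.00128) and 0.44 ± 0.18 (adjusted p = 0.0625).

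Nmnat1, the nuclear enzyme that completes NAD synthesis, had group means between 5.91 and 9.99 CPM. Controls had 3.09 to 7.19 CPM at 16 h with a median of 6.55 CPM, VWF cultures 7.84 to 8.71 CPM, and LPS cultures 6.88 to 12.2 CPM. The lowest control was again replicate 5. The log2 fold change at 16 h was 0.51 ± 0.20 with VWF (adjusted p = 0.0878) and 0.88 ± 0.25 with LPS (adjusted p = 0.0161), and at 3.5 h 0.17 ± 0.11 and 0.15 ± 0.13 (adjusted p = 0.288 and 0.369).

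Nmnat3, its mitochondrial counterpart, was lower on average in treated than control cultures, under the fold threshold but only just with LPS at 16 h. At 3.5 h it had 7.17, 7.88, 7.83, 6.01 and 6.49 CPM in controls, 4.89, 4.42, 6.203, 3.98 and 4.25 CPM with VWF, and 4.26, 3.69, 3.40 and 4.63 CPM with LPS. The LPS cultures were below all controls, and VWF replicate 3 overlapped them. At 16 h controls had 12.1, 13.2, 12.8, 12.1 and 14.4 CPM, VWF cultures 10.2, 11.5, 11.6, 10.8 and 11.1 CPM, and LPS cultures 6.13, 5.91, 6.74 and 5.22 CPM. All 3 groups were separate at 16 h. The log2 fold change was -0.50 ± 0.15 (adjusted p = 0.0218) with VWF and -0.74 ± 0.16 (adjusted p = 0.00173) with LPS at 3.5 h. At 16 h it was -0.18 ± 0.09 (adjusted p = 0.194) with VWF and -0.99 ± 0.13 (adjusted p = 0.000133) with LPS, and VWF cultures were above LPS cultures by 0.85 ± 0.11 (adjusted p = 0.000112).

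Sirt1, the NAD-dependent deacetylase, had a brief LPS response that VWF cultures did not share in size. At 3.5 h LPS cultures had 82.5, 85.0, 76.3 and 62.6 CPM. Controls had 21.1, 19.9, 18.6, 20.1 and 18.6 CPM, and VWF cultures 22.9, 25.9, 24.9, 21.5 and 23.2 CPM. LPS cultures were thus far above both, and VWF cultures were all just above the controls. Sirt1 rose 3.95-fold with LPS (log2 fold change 1.98 ± 0.10, adjusted p = 2.05e-08) and was 3.19-fold lower with VWF than with LPS (-1.67 ± 0.11, adjusted p = 8.98e-07). The VWF difference from control was 0.29 ± 0.08 (adjusted p = 0.0104), and with library size scaling 0.07 (adjusted p = 0.513).

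At 16 h the Sirt1 levels of LPS cultures lay among those of the other groups. Controls had 17.4, 17.6, 19.1, 18.5 and 23.1 CPM, LPS cultures 18.3, 15.9, 13.5 and 18.3 CPM, and VWF cultures 14.0, 14.2, 13.8, 14.9 and 13.6 CPM. LPS overlapped both other groups, and all VWF cultures were below all controls. The log2 fold change was -0.18 ± 0.14 with LPS (adjusted p = 0.317) and -0.45 ± 0.09 with VWF (adjusted p = 0.00374), which is under the fold threshold. VWF differed from LPS by -0.26 ± 0.11 (adjusted p = 0.0761, lower filter).

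Time itself was tested within each treatment. In controls none of the 4 tested genes passed both thresholds between 3.5 h and 16 h, where 9.08% of all genes were called. DESeq2 also called 0, and 2 of the 4 (Bst1 and Naprt) had an unadjusted p under 0.05. Bst1 was higher at 16 h by 0.99 ± 0.12 (adjusted p = 0.000137), on the edge of the threshold, and Naprt by 0.76 ± 0.21 (adjusted p = 0.0155). Under the lower filter, which called 10.9% of all genes, control Cd38 rose by 1.46 ± 0.40 (adjusted p = 0.0154) and Nmnat3 was higher by 0.82 ± 0.12 (adjusted p = 0.00048). Control levels of these genes thus moved with time, and the treatment effects were compared between the times with an interaction term.

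Between 3.5 h and 16 h of VWF, 2 of 5 tested genes rose, where 21.4% of all genes were called. Cd38 and Naprt passed the filter only at 16 h, and Sirt1 only at 3.5 h. Cd38 rose by 3.08 ± 0.28 (adjusted p = 1.99e-06) and Bst1 by 1.98 ± 0.14 (adjusted p = 2.45e-07). Nmnat3 rose by 1.19 ± 0.13 (adjusted p = 9.45e-06) under the lower filter, where 24.4% were called. Under the fold threshold, Naprt differed by 0.67 ± 0.15, Nampt by -0.59 ± 0.11 and Sirt1 by -0.74 ± 0.07. Between 3.5 h and 16 h of LPS, Cd38 rose by 5.87 ± 0.22 and Bst1 by 3.53 ± 0.15 while Sirt1 fell by 2.19 on the log2 scale (SE 0.15). Of all genes, 28.1% were called in that comparison. The adjusted p values of these 3 of 5 genes were 2.98e-07, 5.02e-07 and 3.7e-06. Cd38 again passed the filter only at 16 h, and Sirt1 only at 3.5 h (at most 7.59 TPM at 16 h). Under the lower filter the Sirt1 value was -2.21 ± 0.14 (adjusted p = 1.96e-06).

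The interaction term gives the log2 effect at 16 h minus that at 3.5 h. For VWF it passed both thresholds in 1 of 5 genes (Cd38, 1.58 ± 0.48, adjusted p = 0.0143), against 13.5% of all genes. It was 0.99 ± 0.17 for Bst1 (adjusted p = 0.000118), -0.64 ± 0.14 for Nampt (adjusted p = 0.00165), -0.70 ± 0.12 for Sirt1 (adjusted p = 8.44e-05) and -0.08 ± 0.26 for Naprt (adjusted p = 0.857). For LPS it passed in 4 of 5 genes, against 26.3% of all genes. In both, Cd38 passed the filter only through the treated cultures at 16 h, so these counts are descriptions too. Under the lower filter, the Cd38 term was 1.56 ± 0.46 for VWF (adjusted p = 0.0154) and 4.35 ± 0.43 for LPS (adjusted p = 3.28e-07). The LPS effect was larger at 16 h for Cd38 (4.38 ± 0.46, adjusted p = 6.23e-07) and Bst1 (2.55 ± 0.18, adjusted p = 5.78e-09). It was smaller for Sirt1 (-2.14 ± 0.17, adjusted p = 2.11e-08) and lower at 16 h for Naprt (-1.32 ± 0.29, adjusted p = 0.00108). For Nampt it was -0.30 ± 0.13 (adjusted p = 0.0736). Under the lower filter, the term for VWF was 0.37 ± 0.23 for Nmnat1 and 0.35 ± 0.17 for Nmnat3 (adjusted p = 0.272 and 0.152), and for LPS 0.71 ± 0.29 and -0.27 ± 0.19 (adjusted p = 0.0583 and 0.28). The NAD-cleaving enzymes thus had their larger differences from control late, and Sirt1 had its LPS response early.

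**Figure D3:**
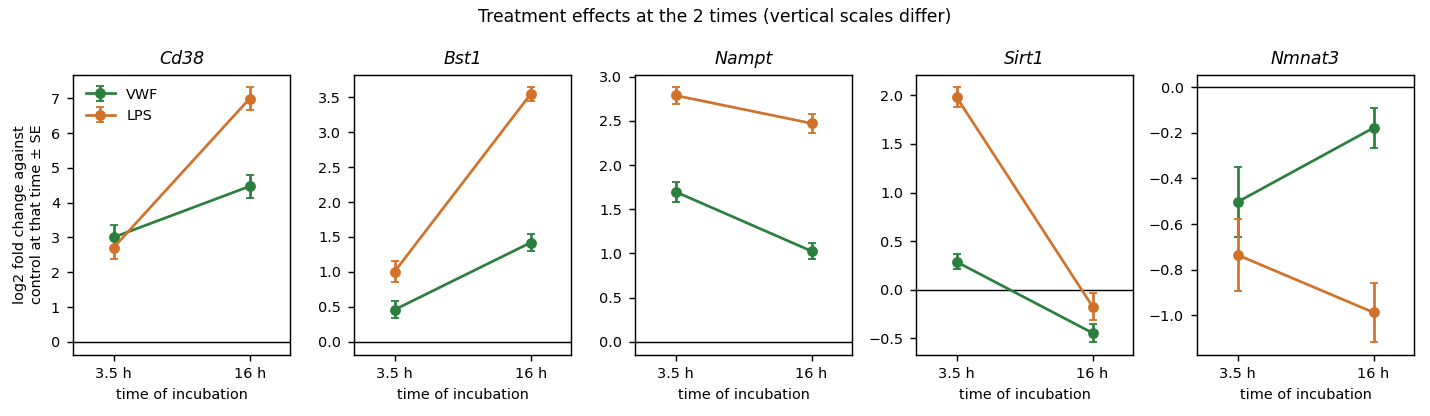
Log2 fold change against control at the same time (vertical axis, ± SE, scales differ between panels) at 3.5 h and 16 h for Cd38, Bst1, Nampt, Sirt1 and Nmnat3, with VWF in green and LPS in orange. The lines join the 2 times and are not a time course. The LPS effect went from 2.71 to 6.99 for Cd38 and from 1.98 to -0.18 for Sirt1.

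Of 31 other genes of NAD metabolism, 11 reached 10 TPM in any culture, and 1 of 8 tested was called with VWF at 3.5 h (14.7% of all genes), 1 of 8 with LPS at 3.5 h (24.5%), 2 of 11 with VWF at 16 h (8.71%) and 4 of 11 with LPS at 16 h (27.6%). The single gene called in all 4 was Pnp, purine nucleoside phosphorylase, which feeds nicotinamide from its riboside into salvage. At 3.5 h Pnp had 69.6, 64.2, 56.6, 43.4 and 42.2 CPM in controls, 182, 282, 333, 400 and 213 CPM with VWF, and 790, 692, 900 and 952 CPM with LPS. As for Nampt, the 3 groups were separate and ordered control, VWF, LPS. Pnp rose by 2.37 ± 0.23 with VWF (adjusted p = 6.13e-06) and 3.93 ± 0.18 with LPS (adjusted p = 1.05e-08), and at 16 h by 2.18 ± 0.12 (adjusted p = 1.22e-06) and 4.15 ± 0.27 (adjusted p = 1.39e-06). Pnp2, a near-identical gene beside it, may share its reads.

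Nadk, the kinase that makes NADP from NAD, rose with VWF at 16 h. Controls had 126, 133, 125, 135 and 83.5 CPM and VWF cultures 295, 321, 347, 250 and 313 CPM, without overlap, for a log2 fold change of 1.33 ± 0.15 (adjusted p = 8.04e-05). LPS cultures had 222, 224, 272 and 174 CPM, a value of 0.92 ± 0.17 (adjusted p = 0.00122) that is under the fold threshold. That value was 0.35 with library size scaling (adjusted p = 0.205) and 1.02 without LPS replicate 4. VWF exceeded LPS by 0.46 ± 0.14 (adjusted p = 0.0189), also under the fold threshold, and by 0.91 with library size scaling.

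Of the other NAD consumers, Parp1, the DNA damage-activated poly(ADP-ribose) polymerase, fell with LPS at 16 h. Controls had 80.9, 97.4, 94.0, 91.7 and 50.2 CPM and LPS cultures 34.2, 33.6, 50.4 and 18.6 CPM, where the highest LPS culture overlapped control replicate 5. The log2 fold change was -1.24 ± 0.29 (adjusted p = 0.00517), and VWF cultures lay above LPS by 1.55 ± 0.27 (adjusted p = 0.000661). At 3.5 h the LPS value of Parp1 was already -0.98, just under the fold threshold, and -1.52 with library size scaling. Its interaction term for LPS was -0.24. Sirt6, a nuclear sirtuin, had 12.4, 12.2, 11.5, 13.3 and 3.2 CPM in controls and 28.2, 25.9, 25.3 and 11.9 CPM in LPS cultures at 16 h. It rose by 1.15 ± 0.40 (adjusted p = 0.0334), with replicate 4 of LPS inside the control range. That call was lost with library size scaling (0.57, adjusted p = 0.283), with the replicate number as a block (0.86) and without some single cultures (0.92 to 1.36, adjusted p up to 0.0863). Nudt13, an NAD(H) pyrophosphatase of mitochondria, rose by 1.18 ± 0.14 with LPS at 16 h (adjusted p = 5.21e-05, 0.60 with library size scaling) and was lower with VWF than with LPS by -1.05 ± 0.11 (adjusted p = 2.23e-05). With the replicate number as a block, that last difference was -0.996, just under the fold threshold. It was -0.96 without LPS replicate 4 and -0.58 with library size scaling. All 9 genes of the de novo route from tryptophan (such as Ido1, Kmo and Qprt) stayed at or below 1.49 TPM in every culture.

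**Figure D4:**
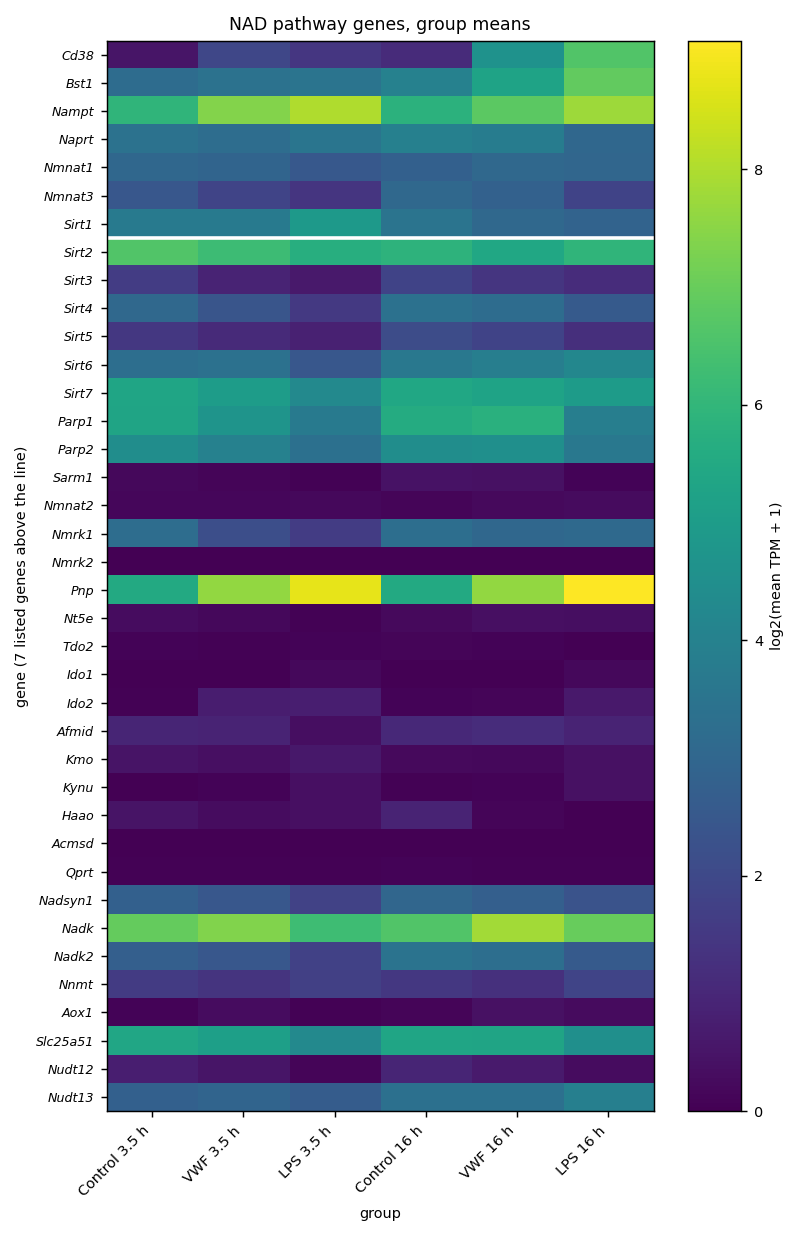
Group mean levels of the 7 genes (above the white line) and the 31 other genes of NAD metabolism (below it), as log2(TPM + 1) by colour, for the 6 groups (horizontal axis). Nampt, Pnp, Nadk and Sirt2 were among the brightest rows, Cd38 and Bst1 brightened in the 16 h LPS column, and the de novo genes from Tdo2 to Qprt stayed dark.

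The genes whose pattern was most like that of each member were ranked by Pearson's r of log2 CPM over the 28 cultures and 8867 genes, as a description of points that share groups and libraries. For Cd38 they were Hp (0.94), Esd (0.94) and its neighbour Bst1 (0.94). For Bst1 they included Ift22 and Ubb (each 0.96). Nampt had the closest partners, Slfn5 (0.996), Irgm1 (0.99) and Ifi47 (0.99), of which Irgm1 and Ifi47 encode interferon-inducible GTPases. Naprt was most like Hspbp1 (0.91), Rnaseh2a (0.89) and Guk1 (0.89), and Sirt1 most like Bach1 (0.96), Sgms2 (0.95) and Ube2d1 (0.95). With r over the 6 group means, at most 1 of the 3 genes was the same for each member. Other settings were Spearman's correlation, median-of-ratios factors and a prior count (added before the log) of 0.5. Over all these settings, 9 lists kept at most 1 of the 3 genes.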

How the data were processed

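Bulk RNA sequencing covered 28 BMDM cultures, grouped by treatment and time from their labels. Paired-end reads were mapped with STAR to GRCm38 (mm10), per the submitters' notes and the study's methods, and the authors deposited whole-number read counts per gene without normalization. Annotation, strand setting and treatment of multimapping reads were not given in the sources used here. TPM was computed from the deposited counts and GENCODE M21 exon lengths. CPM used TMM factors over all cultures. Differences were tested with edgeR's quasi-likelihood method (edgeR 4.0.16, R 4.3.3, robust, TMM, Benjamini-Hochberg over all genes tested), fitted on the groups compared, for 11 comparisons. Alternatives were DESeq2 1.42.0, median-of-ratios factors, library size scaling, 2 other filters, a fit of all groups, a replicate block, no fold threshold and each culture left out. The test was tested on simulated data. Members and lists were chosen with earlier results of these data known, so their calls are not independent of that choice. The text names all 7 genes, and of the list of 31 those called against control at least once. 1 gene ranked as alike is not reported here. No 2 cultures of a group were duplicates (lowest chi-square per degree of freedom 24.8 over 52 pairs). Same-numbered cultures deviated together in all pairs only for VWF against LPS cultures at 16 h (r of 0.19 to 0.85, 4 pairs). The numbers were taken to pair those cultures by that rule, but the labels do not say what they mark. Against controls at 16 h, the lowest r was -0.67 for VWF and -0.77 for LPS cultures. The main tests did not use the numbers.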

Additional observations from a re-analysis of the deposited data

Results flagged for a closer look

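Of 42 sets of 4 or 5 cultures (7 genes in 6 groups), 2 held a culture far from the others, and chance alone marks about 1 in 20. Nampt in VWF 16 h replicate 5 was 174 CPM, where the other 4 cultures had 204 to 209 CPM. Naprt in Control 16 h replicate 5 was 17.8 CPM, where the others had 9.88 to 12.1 CPM, and this culture also had the lowest TMM factor of the controls. The treatment effect differed between 3.5 h and 16 h, by the interaction term of the edgeR fit, in 5 cases. Cd38 differed by 1.58 for VWF (adjusted p = 0.0143) and by 4.38 for LPS (adjusted p = 6.23e-07). It passed the filter there only through the treated cultures at 16 h. For LPS, Bst1 differed by 2.55 (adjusted p = 5.78e-09), Naprt by -1.32 (adjusted p = 0.00108) and Sirt1 by -2.14 (adjusted p = 2.11e-08).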

How the results depend on the processing

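No called value of the 7 genes or the 5 named list genes changed direction in any alternative that could be run. Values from the lower filter had only 1 alternative, no filter. These were Nmnat1 and Nmnat3 throughout, Cd38 at 3.5 h and in controls between the times, Sirt1 for VWF against LPS at 16 h, and Nudt13 at 3.5 h. Library size scaling and leaving out cultures were thus not tried for them, including Nmnat3 with LPS at 16 h. The number of the 7 genes called moved as follows. With library size scaling it was 1 instead of 2 for VWF against LPS at 3.5 h, 2 instead of 3 for VWF against LPS at 16 h, LPS against control at 3.5 h and VWF against control at 16 h, 4 instead of 3 for LPS against control at 16 h, and 2 instead of 1 for the VWF interaction. With edgeR's lower filter, and equally with no filter, it was 2 instead of 1 for VWF against control at 3.5 h, 4 instead of 3 for LPS, 1 instead of 0 for control at 16 h against 3.5 h and 3 instead of 2 for VWF between the times. With no fold threshold it was 3 instead of 1 for VWF against control at 3.5 h, 4 instead of 2 for VWF against LPS at 3.5 h, 2 instead of 0 for control between the times, 5 instead of 2 for VWF and 5 instead of 3 for LPS between the times, and 4 instead of 1 for the VWF interaction. It was also 4 instead of 3 for LPS against control at 3.5 h. The same shift was seen at 16 h for VWF against control and for VWF against LPS. A fit of all groups gave 2 instead of 3 for LPS against control at 3.5 h. When single cultures were left out it was 0 to 1 for control between the times, 1 to 2 for the VWF interaction, and 2 to 3 for LPS against control at 3.5 h and VWF against control at 16 h. DESeq2 and the replicate block gave the same number in every comparison, for example 3 with the block for VWF against LPS at 16 h. Only there were the numbers taken to pair the cultures, by the rule above and not from the labels. With the block, Cd38 was at -2.28, Bst1 at -1.99, Nampt at -1.35 and Naprt at 0.47 (adjusted p = 0.00727 for Naprt). Elsewhere the cultures share only a number. With library size scaling, all genes called with LPS at 16 h split into 782 higher and 2319 lower, against 1221 and 989 with TMM, and at 3.5 h into 704 and 2213 against 1047 and 963. Depth limits Cd38 in controls at 3.5 h, at 12 to 60 counts per culture. The causes of these shifts were not tested.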
